A study of Homo sapiens with 8 samples.

Results

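The side population (SP) of the lung adenocarcinoma line H1650 was compared with its main population (MP), 1 array of each, over the genes whose brightest probe set had a log2 signal of at least 8 in either array. Of 19775 genes with a probe set of 1 gene symbol, 9619 met this rule. H1650 is an established human line with mutated EGFR. H1975 also has mutated EGFR, and A549 and H460 have mutated K-Ras. The study sorted SP and MP cells of 4 lung cancer lines (H1650, H1975, A549 and H460) and hybridised 8 arrays in all, 1 of each population and line. Cells were stained with a Hoechst dye, dead cells were gated out by propidium iodide, and the SP gate was set with fumitremorgin C, an inhibitor of ABCG2, as shown for A549. Each array carried cRNA made from 100 ng of total RNA. With 1 array per population, no test of the H1650 pair was possible. Its ratios, counts and medians describe these 2 arrays, and the error given for a gene is the spread between its probe sets, which read the same 2 RNA samples and are not replicates.

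The side population is the small tail of cells that keeps little Hoechst dye because membrane pumps, above all the ABC transporter ABCG2, export it. In many tissues and tumours this tail holds cells with properties of stem cells, and in cultured lung cancer lines it is used as a source of stem-like cells. Dye content also follows DNA content, so that cells late in the cycle bind more dye than cells in G1.

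The labels of the 2 arrays were kept as deposited. ABCG2 served the study as the control gene of the SP phenotype in its quantitative PCR of the 4 lines, H1650 among them. That is a separate measure from these arrays. Its log2 signal, from 1 probe set, was 10.75 in the array labelled SP and 11.45 in the array labelled MP, a log2 ratio of -0.70. The transporter was thus lower under the SP label, which is opposite to the direction that the study takes for the SP. In A549, H460 and H1975 its log2 ratios were 1.08, 0.36 and 1.17. Each direction given for the H1650 pair depends on its labels, and with them exchanged every ratio of the pair would change its sign. Whether the arrays were exchanged cannot be told from the files and was not tested. The fit with exchanged labels given below shows how the counts depend on the labels and is not such a test. Of the 11 ABC transporters listed for the side population, 5 were above the floor. ABCC3, an exporter of conjugated organic anions, had log2 ratios from 0.52 to 0.97 over 4 probe sets, and ABCC1, ABCC5 and ABCA1 had 0.18, -0.12 and -0.15 by their brightest probe sets.

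Both arrays had the markers of an epithelial carcinoma line. EPCAM, KRT8, KRT18, KRT19 and CDH1 had log2 signals from 13.22 to 13.90, and their summed linear signal was 63933 in the array labelled SP and 63582 in the array labelled MP. None of the 4 lung lineage markers, NKX2-1, SFTPB, NAPSA and FOXA2, reached the floor (summed signal 319 and 289). Of 19 measured genes in a longer list of the lung epithelium 5 did, MUC1, KRT7 and LPCAT1 in both arrays and the dim genes SFTPC and GATA6 in the array labelled MP alone (8.30 and 8.48). Of 9 leukocyte markers measured 1, CSF1R, was above the floor, with summed signals of 623 and 680. All 8 endothelial markers were below it (436 and 534), and 2 of 8 fibroblast markers, COL1A1 and COL3A1, were above it (1357 and 1134). The median log2 signal was 6.14 and 6.16 and the share of probe sets at or above 8 was 32.0% and 31.9% in the arrays labelled SP and MP. The difference of 3' and 5' control probe sets was 0.23 and 0.26 for ACTB and -0.06 and -0.08 for GAPDH, on the log2 scale.

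Most genes had near equal signals in both arrays. The median SP over MP log2 ratio was -0.0014 (SD 0.320 over 9619 genes), and 90.6% of the genes lay within 0.5 of 0. At a fold of 2, which is a log2 ratio of 1, 34 genes were higher in the array labelled SP (0.353% of 9619) and 115 were lower (1.2%). In bulk RNA of this kind, fewer cells that express a gene and less RNA of it per cell cannot be told apart. The 2-fold genes were mostly dim. Below a mean log2 signal of 9 the SD of the ratios was 0.455 and 4.28% of 2034 genes were 2-fold higher or lower, whereas at 12 and above the SD was 0.167 and none of 1530 genes was. In 18 of the 34 higher genes and in 54 of the 115 lower genes the other array was below the floor, where the files give no detection call. Of the called genes, 19 higher and 44 lower ones had a ratio between 1 and 1.2 in size, and 10 and 46 more lay just outside, between 0.9 and 1. At the edge of the signal rule, the 335 genes with a higher signal between 8 and 8.2 had an SD of 0.491 and the 305 genes just below the floor, between 7.8 and 8, an SD of 0.495.

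**Figure D1:**
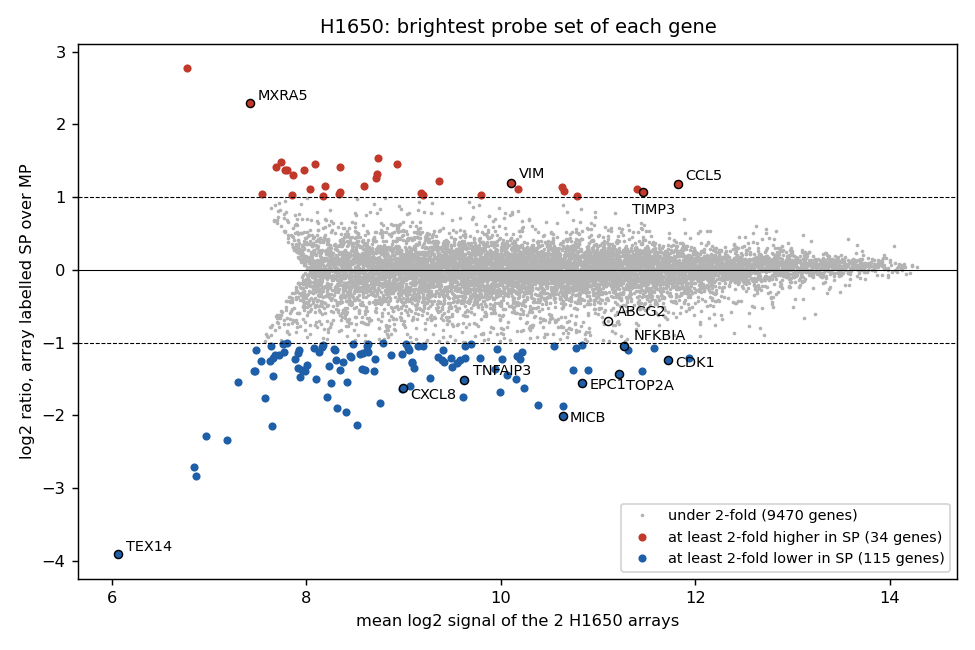
Log2 ratio between the arrays labelled SP and MP, SP over MP (vertical axis), against the mean log2 signal of both arrays (horizontal axis) for the brightest probe set of each of 9619 genes in H1650. Red points are the 34 genes at least 2-fold higher, blue points the 115 at least 2-fold lower, dashed lines mark a log2 ratio of 1 and -1, and the points narrow around 0 as the signal grows. ABCG2, circled, lies at -0.70.

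A second reading of the same RNA was at hand for genes with several probe sets above the floor, which were 4118 of the 9619. Across these genes the ratio of the second brightest probe set followed that of the brightest with Pearson's r of 0.478 and Spearman's rho of 0.426, a description across genes, which are not independent, and 66.4% had the same sign. The pooled SD between the probe sets of a gene was 0.261. Of the 34 higher genes 7 had a second probe set. It was 2-fold in the same direction in 4 genes, in the same direction under 2-fold in 3 and opposite in 0, with a median log2 ratio of 1.15. Of the 115 lower genes 32 had one, which was 2-fold lower in 15, lower by less in 11 and higher in 6, with a median of -0.86. The other 27 higher and 83 lower genes are single readings.

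**Figure D2:**
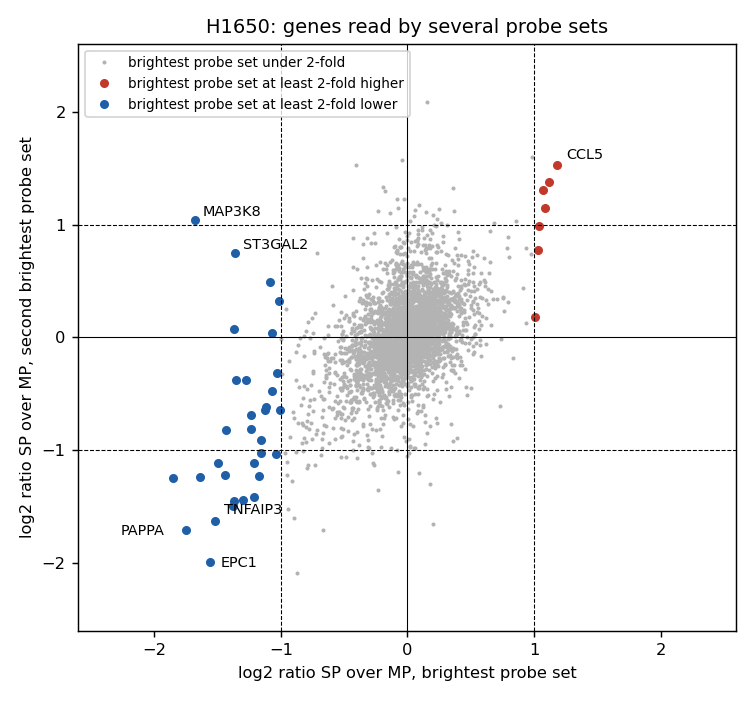
Log2 ratio of SP over MP of the second brightest probe set (vertical axis) against that of the brightest (horizontal axis) for 4118 genes of H1650 with several probe sets above the floor. Red and blue points are genes 2-fold higher or lower by the brightest probe set, dashed lines mark a log2 ratio of 1 and -1, and 6 blue points, among them MAP3K8 and ST3GAL2, lie above 0 on the vertical axis.

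A gene was taken to agree when all its probe sets above the floor had 1 sign and at least 2 of them were 2-fold. This held for 6 genes higher in the array labelled SP (0.146% of 4118) and for 18 lower (0.437%). CCL5, a chemokine that attracts T cells and monocytes, was the highest. Its 3 probe sets read 12.42, 12.04 and 11.84 in the array labelled SP and 11.24, 10.51 and 10.59 in the array labelled MP, log2 ratios of 1.18, 1.53 and 1.25 (mean 1.32, SD 0.18, n = 3 probe sets). Each of the 3 probe sets was thus more than 2-fold higher in the array labelled SP. TIMP3, a matrix-bound inhibitor of metalloproteinases, read 11.998, 11.62, 11.30 and 10.52 in SP and 10.93, 10.32, 9.78 and 9.43 in MP, log2 ratios of 1.07 to 1.52 that averaged 1.24 (SD 0.21, n = 4 probe sets). RSRP1, which encodes an arginine and serine rich nuclear protein, had a mean of 1.25 (1.12 and 1.38), and DOK5, a docking protein of receptor tyrosine kinases, had 1.12 (1.09 and 1.15). The adhesion molecule gene CEACAM1 had ratios of 0.86, 1.03, 0.61 and 1.5 over 4 probe sets, of which 3 carry suffixes for probes that can match related genes, so that its level is uncertain against its paralogs. SF3B1, a core protein of the U2 snRNP of the spliceosome, met the rule with 1.23 and 1.09 in 2 of 5 probe sets, but its 2 brightest gave 0.15 and 0.33.

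The 18 lower genes encode proteins of several kinds. PAPPA, a protease that frees insulin-like growth factors from their binding proteins, was the lowest, with 7.34 and 7.13 in SP against 9.09 and 8.83 in MP (log2 ratios averaging -1.73, SD 0.03, n = 2 probe sets). TNFAIP3, a ubiquitin-editing enzyme that restrains NF-kB, read 8.86 and 7.79 in SP and 10.38 and 9.42 in MP, log2 ratios of -1.52 and -1.63. PIK3R3, a regulatory subunit of phosphoinositide 3-kinase, had -1.85 and -1.25, and IL6R, the receptor of interleukin 6, had -1.50 and -1.11. DUSP10, a phosphatase of the stress kinases p38 and JNK, had -1.17 and -1.23, SPSB1, a substrate adaptor of a ubiquitin ligase, -1.64 and -1.23, and the calcium-responsive transcription factor gene NFATC2 -1.37 and -1.49. Every probe set of these 7 genes above the floor was at least 2-fold lower. Those of PAPPA and NFATC2 passed the floor through the array labelled MP alone. The same held for the second probe sets of TNFAIP3, PIK3R3, DUSP10 and SPSB1.

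The nuclear receptor gene NR4A3 had log2 ratios of -1.44 and -1.22, IFRD1, a transcriptional coregulator, had -1.21, -1.41 and -1.80, and INTS6, a subunit of the Integrator complex, had -1.22 and -1.12. EPC1, a subunit of the NuA4 histone acetyltransferase complex, had -1.56, -1.99 and -1.63 in 3 probe sets and -0.37 in the other. JMJD1C, of the JmjC histone demethylase family, was as uneven, with -1.03, -0.31 and -2.26. The small GTPase genes RRAD and RAB7B had means of -1.37 and -1.41, the microfibril gene MFAP5 -1.10, the protocadherin gene PCDH7 -1.09 and KMO, an enzyme of the kynurenine pathway, -1.04. Every probe set of RRAD and RAB7B passed the floor through the array labelled MP alone, as did the dimmest of NR4A3, IFRD1, EPC1, JMJD1C and MFAP5. The probe sets of KMO both carry suffixes for shared probes. Without such probe sets, CCL5 was the one gene of the 6 that still met the rule, and 7 of the 18 lower genes did, IFRD1, IL6R, JMJD1C, NFATC2, PCDH7, RAB7B and SPSB1. At a fold of 3 none of the higher and 2 of the lower genes were left.

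**Figure D3:**
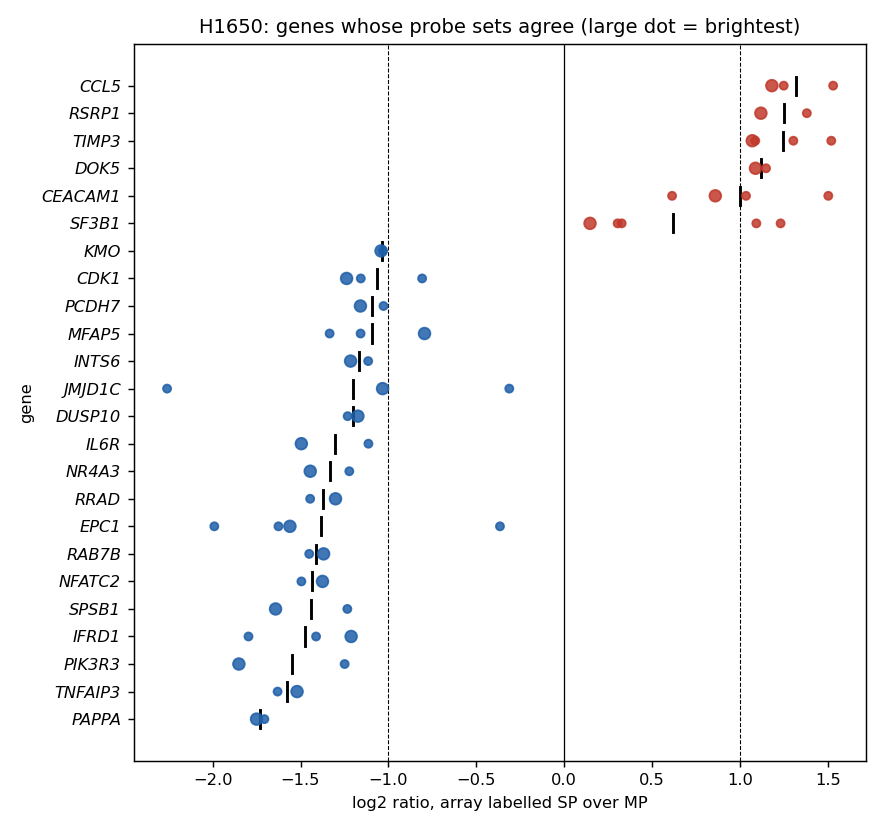
SP over MP log2 ratio (horizontal axis) in H1650 of every probe set above the floor for the 24 genes whose probe sets agree (vertical axis). Each point is 1 probe set, the large one the brightest of the gene, bars are means over probe sets, red is higher and blue lower in the array labelled SP. JMJD1C and EPC1 spread the most, and the probe sets of PAPPA lie at -1.75 and -1.71. Dashed lines mark a log2 ratio of 1 and -1.

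Nearly all genes of mitosis and chromosome condensation had ratios below 0. Chromosome condensation is driven by condensin and topoisomerase II at the entry into mitosis, under the control of CDK1 and Aurora B. CDK1 with cyclin B is the kinase that starts mitosis. CDK1 read 11.10, 9.67 and 9.32 in the array labelled SP and 12.34, 10.48 and 10.47 in the array labelled MP, log2 ratios of -1.24, -0.81 and -1.16, and so was among the genes whose probe sets agree. TOP2A, the topoisomerase that untangles sister chromatids, read 10.50 and 10.09 against 11.93 and 10.91 (-1.43 and -0.82). AURKB, the Aurora kinase at the centromere, had 8.83 in SP and 10.16 in MP (-1.34), and NCAPH, a condensin subunit, 8.46 and 9.72 (-1.27), each from 1 probe set. The study picked CDK1, TOP2A, AURKB and NCAPH on arrays that include this pair, for the opposite direction. Its quantitative PCR, a separate measure that included this line, also reported these genes as higher in the SP. Under the deposited labels, their ratios in the H1650 pair of arrays went the other way. The cause of this difference was not tested. In A549, H460 and H1975 all 4 had ratios above 0, with 0.62, 0.87 and 1.58 for TOP2A, 0.64, 0.45 and 1.35 for AURKB and 1.04, 0.64 and 1.53 for NCAPH, and those of CDK1 are given with the comparison of the lines.

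All 20 condensation genes measured had a ratio below 0, with a median of -0.42, against -0.0014 over all 9619 genes, of which 49.7% lay above 0. At a fold of 2 these 4 were lower and none was higher, where 1.2% and 0.353% of all 9619 genes were. The other condensin genes were less far from 0, with -0.95 for NCAPG (-1.10 in its second probe set), -0.45 for SMC4 and -0.37 for SMC2. The mitotic cyclins CCNB1, CCNB2 and CCNA2 had -0.39, -0.45 and -0.72, and the proliferation marker MKI67 had -0.57 to -0.90 over 4 probe sets. TOP1, which relaxes DNA outside mitosis as well, was nearest to 0, with -0.06 in its brightest probe set and 0.80 in its second.

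In the mitosis list 32 of 34 genes had a ratio below 0, with a median of -0.59. Of its 12 genes with several probe sets, 11 had all of them below 0. UBE2C, the ubiquitin-conjugating enzyme of the anaphase-promoting complex, read 10.76 in SP and 11.86 in MP (-1.10). NDC80 and SPC25, which together sit in the kinetochore complex that holds microtubules, had -1.04 and -1.02, and these were the 3 genes of the list at 2-fold. Each of these is a single reading. Over all 9619 genes 1.2% were 2-fold lower. The spindle checkpoint kinase gene TTK and the spindle motor gene KIF11 both had -0.92, and HMMR had -0.88 and -1.02. Near 0 lay PTTG1, the securin gene, with 0.06 and KIF20A with 0.13.

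Genes of DNA replication leaned the same way by less. Of 31 measured, 27 had a ratio below 0 (median -0.26), none at 2-fold. Among all 9619 genes 49.7% lay above 0, 1.2% were 2-fold lower and 0.353% higher. CDT1, which licenses origins, had -0.86 in its brightest and -0.07 in its second probe set, and the ribonucleotide reductase genes RRM1 and RRM2 had -0.52 and -0.51. The helicase genes MCM5 and MCM3 had 0.22 and 0.10. Among 9 cell cycle inhibitors, GADD45B was 2-fold higher (10.31 in SP and 9.27 in MP, with 1.03, 0.78 and 0.75 over 3 probe sets), CDKN1A had -0.24 and GADD45A -0.71.

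The DNA upstream of CDK1 and TOP2A is shown because promoters of late cell cycle genes hold 2 known elements, the CCAAT box bound by NF-Y and the cell cycle homology region with the letters TTTGAA or TTCGAA. Both were searched on both strands in the 250 bases before each start in the RefSeq promoter table (GRCh38.p14). Capitals mark every match. CDK1, chr10:60778368-60778477, plus strand, has matches that start at positions -78, -69, -46 and -13 from the start site. TOP2A, chr17:40417897-40418096, minus strand, was added after its values were seen.
CDK1: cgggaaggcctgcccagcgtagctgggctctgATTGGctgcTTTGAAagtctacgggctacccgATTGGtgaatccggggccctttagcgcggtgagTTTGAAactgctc
TOP2A: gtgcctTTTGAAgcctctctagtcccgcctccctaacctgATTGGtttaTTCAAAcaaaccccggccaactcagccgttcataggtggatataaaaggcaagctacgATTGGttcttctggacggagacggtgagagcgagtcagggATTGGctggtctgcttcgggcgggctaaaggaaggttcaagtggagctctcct
CCAAT was found in 74.2% of 31 promoters of the mitosis list and 61.5% of 26 promoters of the condensation list, against 32.0% of all 35116 promoters. For TTTGAA or TTCGAA the shares were 51.6%, 46.2% and 14.3%. Among 144 promoters of the genes 2-fold lower in the array labelled SP, 39.6% and 17.4% held them, against 33.4% and 10.3% of 11764 promoters of genes above the floor. The lists were made of late cell cycle genes, so that their shares describe the lists, and a match is a run of letters and not a measured binding site.

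**Figure D4:**
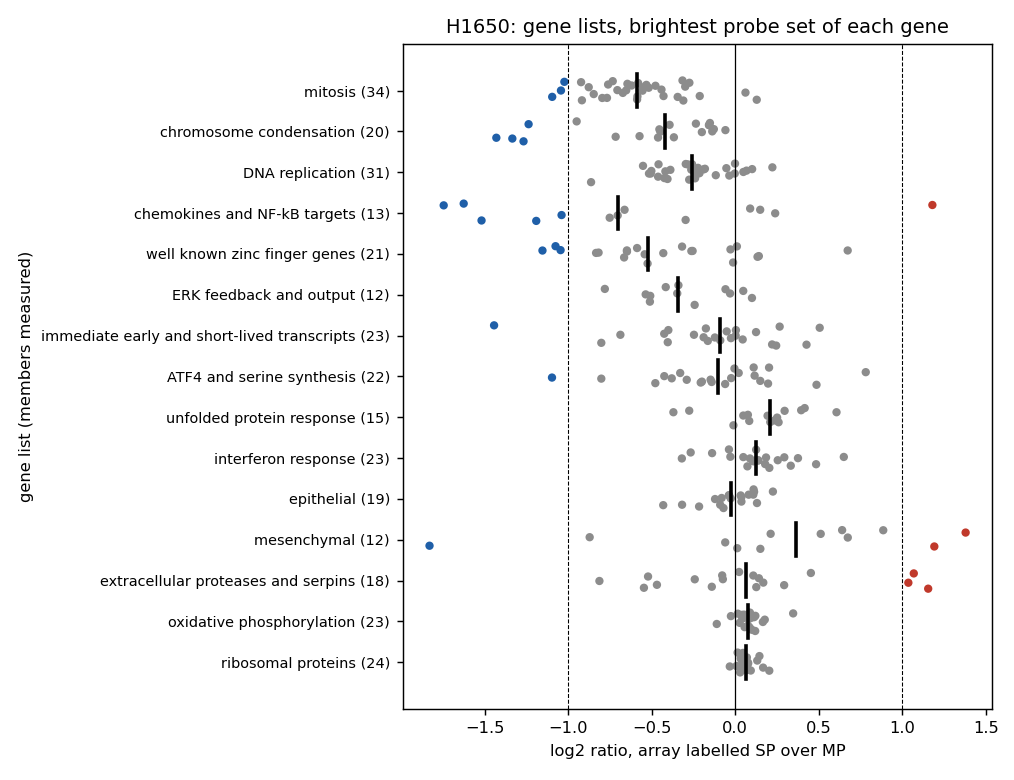
SP over MP log2 ratio (horizontal axis) in H1650 for the members of 15 gene lists (vertical axis, with the number of members above the floor), 1 point a gene by its brightest probe set. Black bars are medians, dashed lines mark a log2 ratio of 1 and -1, blue points are 2-fold lower and red points 2-fold higher; vertical offsets within a list only separate the points. The medians of mitosis, chromosome condensation and the chemokine list lie at -0.59, -0.42 and -0.70.

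Chemokines and other targets of NF-kB held the lowest list median. NF-kB is the transcription factor of inflammatory signals, and it drives its own inhibitors, NFKBIA and TNFAIP3, along with neutrophil chemokines. Of 13 measured genes 9 had a ratio below 0 (median -0.70), 5 were 2-fold lower and 1 was 2-fold higher. Over all 9619 genes the shares were 1.2% and 0.353%. The neutrophil chemokine genes CXCL2, CXCL8 and CXCL1 read 8.74, 8.18 and 8.75 in SP and 10.49, 9.80 and 9.95 in MP, log2 ratios of -1.75, -1.63 and -1.19. NFKBIA, the inhibitor that holds NF-kB in the cytoplasm, had 10.75 and 11.79 (-1.04), and TNFAIP3 was given above. These 4 genes are single readings. The cytokine gene IL6 had -0.75, CXCL5 -0.70 and RELB, an NF-kB subunit, -0.66.

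Against these, CCL5 was 2-fold higher in all 3 probe sets, and ICAM1, CCL20 and LCN2 had 0.15, 0.09 and 0.24. The 2-fold genes of the list therefore did not share a direction. Outside the list, IRAK2 and TRAF6, which carry signals of Toll-like and interleukin 1 receptors to NF-kB, had -1.10 and -1.05 as single readings, and the interleukin gene IL11 had -1.39. MAP3K8, another kinase of this pathway, disagreed between its probe sets, with -1.68 in one and 1.04 in the other. IRAK2, TRAF6 and IL11 were picked from the 2-fold lower genes after their values were seen. TRAF6 and IL11 were below the floor in the array labelled SP.

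Upstream sequence of the 5 lower genes of the list is shown because all 11 promoters of this list in the RefSeq table held the letters GGAANNNCC, a short form of the NF-kB site, on either strand within 250 bases of the start, against 17.1% of all promoters and 22.2% of those of the 2-fold lower genes. Of 11764 promoters of genes above the floor, 19.8% held these letters. This motif and the 5 genes shown were chosen after the values were seen, and capitals mark the matches. CXCL8 (chr4:73740459-73740568, plus strand), CXCL1 (chr4:73869283-73869392, plus strand), CXCL2 (chr4:74099196-74099305, minus strand), TNFAIP3 (chr6:137867149-137867258, plus strand) and NFKBIA (chr14:35404750-35404859, minus strand) are given 5′ to 3′ up to the base before the start.
CXCL8: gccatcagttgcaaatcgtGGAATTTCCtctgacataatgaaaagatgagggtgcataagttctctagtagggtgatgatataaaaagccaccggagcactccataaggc
CXCL1: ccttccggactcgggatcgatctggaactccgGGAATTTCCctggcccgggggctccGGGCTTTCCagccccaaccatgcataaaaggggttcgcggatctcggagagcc
CXCL2: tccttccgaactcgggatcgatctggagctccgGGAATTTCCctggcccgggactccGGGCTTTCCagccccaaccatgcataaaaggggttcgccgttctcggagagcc
TNFAIP3: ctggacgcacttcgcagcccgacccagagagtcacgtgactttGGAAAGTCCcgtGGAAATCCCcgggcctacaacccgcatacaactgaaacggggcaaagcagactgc
NFKBIA: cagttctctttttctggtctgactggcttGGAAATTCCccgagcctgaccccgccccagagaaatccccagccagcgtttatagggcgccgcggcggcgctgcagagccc
The list is one of NF-kB targets, so that the share is a property of how it was drawn up, and it includes CCL5 and other genes that were not lower.

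Transcripts listed as feedback and output of ERK, the kinase below EGFR, lay on the lower side without a 2-fold gene. Of 12 such genes 10 had a ratio below 0 (median -0.34), whereas 49.7% of all 9619 genes lay above 0. The activity of ERK was not measured. DUSP6, the phosphatase of ERK itself, had -0.78 and -0.81 in its 2 probe sets, SPRED2 had -0.54 and IER3 -0.51, while ETV5 had -0.51 in its brightest probe set and -0.01 in its second. Outside the list, the ERK phosphatase gene DUSP7 was 2-fold lower as a single reading (8.79 and 10.05, -1.26). It was picked from the 2-fold lower genes after its values were seen. EGFR itself had ratios from 0.05 to 0.37 over 5 probe sets and the receptors ERBB2 and ERBB3 0.19 and -0.18. Among the ligands HBEGF had -0.23, TGFA -0.09 and the dim genes BTC and EGF -0.65 and -0.53.

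Immediate early genes, which are transcribed within minutes of a signal, did not lean clearly to a side. Of 23 genes 14 had a ratio below 0 (median -0.09), and NR4A3 was the one gene at 2-fold. Among all 9619 genes 1.2% were 2-fold lower and 0.353% higher. ATF3 had -0.80 and -0.93, EGR3 -0.69, ZFP36 0.51 and CCN2 0.43. In a list of 24 well known zinc finger genes, 17 of 21 measured had a ratio below 0, with a median of -0.53. Over all 9619 genes 49.7% lay above 0. The list was drawn up with earlier results of these data known and is not the whole family. ZFX read 7.97 in SP and 9.12 in MP (-1.15, and -0.91 in its second probe set), and ZNF267 and ZNF92 had -1.08 and -1.05, while ZNF148 had 0.67 in its brightest probe set. The list of acetyltransferase and chromatin genes had a median of -0.12, and its 2-fold genes were EPC1 and MSL2 (8.53 and 10.01, -1.48), the latter a ubiquitin ligase of a histone acetyltransferase complex. The paralog EPC2 had -0.75.

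On the higher side, mesenchymal genes had the highest list median that rested on more than 2 genes, 0.36 over 12 genes, with 9 above 0. For all 9619 genes the share above 0 was 49.7%, and 0.353% were 2-fold higher. VIM, the intermediate filament of mesenchymal cells, read 10.70 in SP and 9.51 in MP (1.19), COL3A1, a fibrillar collagen, 8.67 and 7.29 (1.38), and SNAI1, a repressor of E-cadherin, 10.22 and 9.33 (0.89). Each of these is a single reading, and COL3A1 was below the floor in the array labelled MP. COL5A1 had 0.30 to 0.64 over 3 probe sets, and FN1 had 0.17 to 0.24 over 4. ACTA2, the smooth muscle actin gene, went the other way as a single reading (7.84 and 9.68, -1.83), as did SPARC, with -0.87 and -2.09 in its probe sets. Epithelial genes stayed near 0 beside them, with a median of -0.03 over 19 genes and OCLN, a tight junction gene, the lowest at -0.43. COL3A1 also stands in the fibroblast marker list, whose other gene above the floor, COL1A1, had -0.06, and whose summed signal is given above; the part of other cells in these ratios was not tested.

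Of 18 measured genes of extracellular proteases and their inhibitors, 3 were 2-fold higher and 0 were 2-fold lower. Over all 9619 genes the shares were 0.353% and 1.2%. Besides TIMP3 these were KLK10, a kallikrein protease, as a single reading (9.17 and 8.02, 1.16), and SERPINA1, the inhibitor of neutrophil elastase. SERPINA1 read 8.37 and 7.33 in its brightest probe set (1.04) and was under 2-fold in the second (0.98). PLAU, the urokinase gene, had -0.81 and -0.89. The list median was 0.07 over 18 genes. Outside the lists, the insulin-like growth factor binding protein genes IGFBP4 and IGFBP6 were 2-fold higher as single readings, with 1.45 and 1.07. PAPPA, which cleaves IGFBP4, was lower. IGFBP6 was picked after its values were seen and was below the floor in the array labelled MP.

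Among lists of stress and metabolism, the unfolded protein response lay above 0 in 12 of 15 genes (median 0.21). HSP90B1, the chaperone of the endoplasmic reticulum, had 0.61 and 0.70, CRELD2 0.42 and HYOU1 0.39, whereas HERPUD1 and XBP1 had -0.37 and -0.28. DDIT3, the transcription factor CHOP, was 2-fold lower (8.51 and 9.61, -1.10). Interferon response genes lay above 0 in 18 of 23 (median 0.12), with RSAD2 at 0.65 and 0.67 and XAF1 at 0.48 and 0.65. Ribosomal protein genes lay above 0 in 23 of 24 and oxidative phosphorylation genes in 21 of 23, with medians of 0.06 and 0.08 and none at 2-fold. These genes are bright, and at a mean log2 signal of 12 and above the median of all genes was 0.04. All 7 genes of the metallothionein list had a ratio below 0 (median -0.29), with MT1E lowest at -0.59, and HMOX1, a haem-degrading enzyme, had -0.90.

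The stem cell marker genes above the floor were 6 of 17, and none was 2-fold. KLF4 had -0.23, ITGA6 0.14, NT5E -0.05, ALDH1A3 -0.02, CD24 -0.01 and CD44 -0.03 by its brightest probe set. Of the 9 probe sets of CD44, 7 lay between 0.07 and 0.49 and 1 at -1.70. Of 12 targets of Wnt and Notch, 2 were 2-fold lower, against 1.2% of all 9619 genes. These were NRARP, a feedback inhibitor of Notch (10.75 and 12.15, -1.39), and DKK1, a secreted inhibitor of Wnt (9.57 and 10.76, -1.19), as single readings. GATA6, which encodes a factor of endoderm and lung development, read 7.34 and 8.48 (-1.14).

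The largest ratios were single readings. On the lower side TEX14 read 4.11 in SP and 8.02 in MP (-3.91), CRACDL 5.45 and 8.28 (-2.83), CNKSR2 5.49 and 8.20 (-2.71) and the zinc transporter gene SLC30A2 6.01 and 8.35 (-2.34). Each of these was below the floor in the array labelled SP, as were IL31RA, PLCB4 and LINC00304, with ratios of -2.29, -2.14 and -2.13. MICB, a stress-induced ligand of the NKG2D receptor on natural killer cells, was the exception, with bright signals in both arrays (9.63 and 11.64, -2.01). On the higher side GTF2IP20, a pseudogene, read 8.15 and 5.38 (2.77), MXRA5 8.57 and 6.28 (2.29), PRR16 9.51 and 7.97 (1.54), the collagen gene COL8A1 8.81 and 7.36 (1.46) and NNT, which makes mitochondrial NADPH, 8.40 and 6.98 (1.42).

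Where a gene had more readings, such sizes did not always recur. SELENOI had -0.23 and -0.25 in its brighter probe sets and 2.47 in the dimmest (8.01 and 5.54), ZFYVE16 had 0.02, 0.13 and 2.08, and ZNF207 ran from -1.72 to 0.52 over 6 probe sets. ST3GAL2 had -1.36 in the brightest and 0.75 and 0.72 in the others, CLIP1 ran from -1.49 to 0.83, and TRIOBP from -1.55 to 0.71. Probe sets of a gene can read different transcripts, and which of them do so was not tested.

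The H1650 pair was last set against the pairs of the other 3 lines in 1 limma fit over 12195 genes, with cell line as a block, in which the single H1650 pair is assumed to vary like the others. At an adjusted p under 0.05, 7 genes differed towards a higher ratio in H1650 (0.0574% of 12195) and 32 towards a lower one (0.262%). Of these, 3 and 32 were among the 9619 genes described here. In 34 of the 35 the ratio of H1650 had the opposite sign to the mean of the other lines, CXCL8 being the exception. This rests on the labels that the ABCG2 signal goes against, and with the H1650 labels exchanged these 34 would share the sign of the others. The limma fit with exchanged labels, added after seeing the data, called 0 genes, with 344 at an unadjusted p under 0.05 (lowest adjusted p 0.203). CXCL8 had -1.63 in H1650 and -0.05, -0.34 and -0.02 in A549, H460 and H1975 (difference -1.49, standard error 0.19, limma adjusted p = 0.047). CDK1 had -1.24 against 0.36, 0.45 and 0.60 (difference -1.71, standard error 0.17, limma adjusted p = 0.047), and TTK and KIF11 had differences of -1.83 and -1.71. MICB was near 0 in the others, at 0.11, 0.24 and -0.03 (difference -2.12, standard error 0.20, limma adjusted p = 0.047). VIM was too, at -0.11, 0.06 and -0.12, with a difference of 1.25 (standard error 0.16, limma adjusted p = 0.047). GADD45B had -1.29, -1.04 and -0.92 in the other lines and a difference of 2.12. TNFAIP3 had 0.69, 0.28 and 0.27 and a difference of -1.93, and JMJD1C, DUSP10 and SPSB1, with agreeing probe sets, had differences of -1.80, -2.59 and -2.84. The adjusted p of all 39 lay at 0.047 or 0.048, and these calls were not stable. With quantile normalization, without the trend or with no filter on dim genes, limma called 0 genes, with 1506, 1284 and 1785 genes at an unadjusted p under 0.05. Without A549 the fit called 0 higher and 1 lower gene, with 0 of the 39 among them. Without H460 it called 2 and 6, with 2 of the 39 among them. Without H1975 it called 12 and 107, with 37 of the 39 among them.

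Counted without a test, the genes that were 2-fold lower in H1650 mostly had ratios above 0 elsewhere. Of the 115, 22 were below 0 in A549, 21 in H460 and 23 in H1975, whereas of all genes with a ratio below 0 in H1650, 38.0%, 43.9% and 38.8% were. In the opposite direction 39, 36 and 39 of the 115 were 2-fold higher in these lines, where 2.5%, 1.94% and 1.75% of all the genes were. Of the 34 genes 2-fold higher in H1650, 10, 13 and 7 were above 0 in A549, H460 and H1975, against 37.1%, 34.0% and 34.1% of all genes above 0 in H1650. These counts too rest on the deposited labels. With the H1650 labels exchanged, the 115 genes would be 2-fold higher in H1650, and the same 39, 36 and 39 of them would be 2-fold higher in H1650 and in the other line alike.

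**Figure D5:**
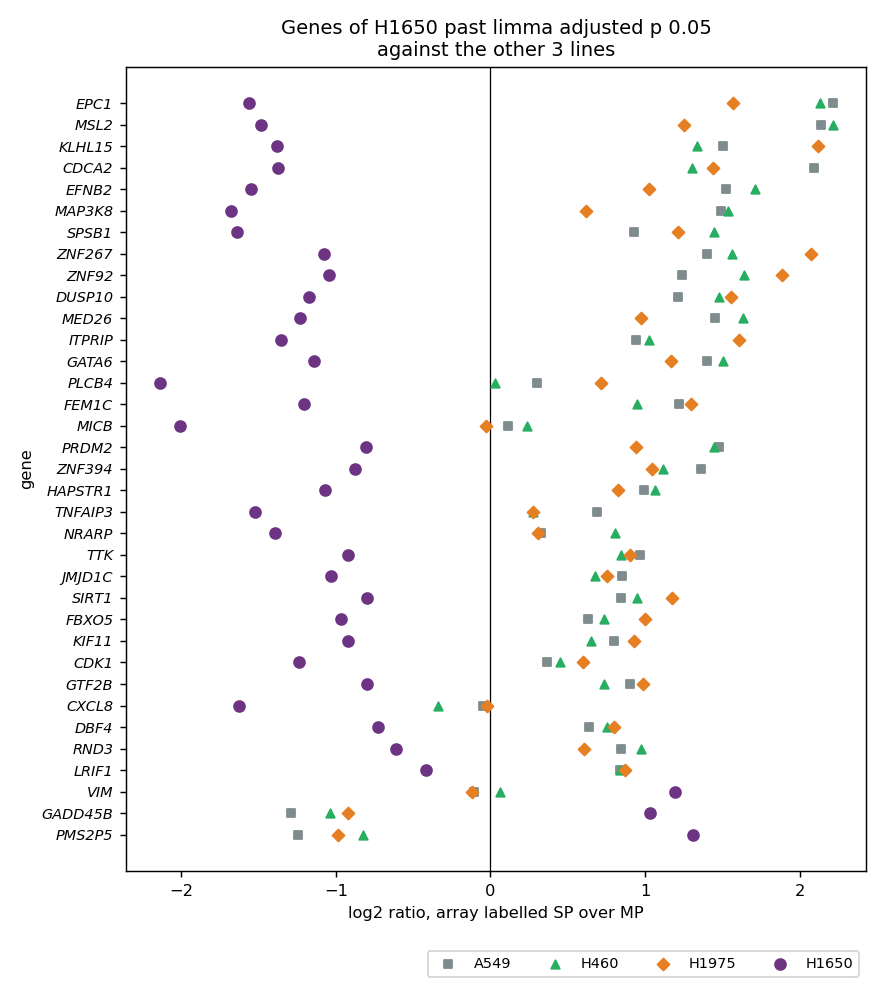
Log2 ratio of SP over MP (horizontal axis) in H1650 and in the other 3 lines for the 35 genes above the floor (vertical axis) that differed at a limma adjusted p under 0.05. Each point is 1 pair of arrays, purple circles are H1650, and the genes are ordered by the difference between H1650 and the mean of the others. In all but MICB, CXCL8 and VIM the other 3 lines lie on the opposite side of 0 from H1650.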

How the data were processed

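Expression was measured in SP and MP cells of H1650, A549, H460 and H1975 on Affymetrix U133 Plus 2.0 arrays, 1 per population and line. The authors deposited log2 signals, per the labels from GCOS 1.4 and MAS5, while the paper also names Expression Console and a centring of each gene, which these values do not show. On the linear scale every array has a mean of 500.1 once 2% is trimmed from each end. The number of arrays limits the precision. The sources used here give neither detection calls nor probe positions.

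Of 54675 probe sets, 62 controls were left out, 41097 had 1 gene symbol in the platform annotation, 1801 had several and 11777 had none. Gene identifiers matched the RefSeq table for 41043, which changed 0 symbols. The brightest probe set over the 2 H1650 arrays stood for a gene. A gene was kept at a log2 signal of at least 8 in either array and counted at a fold of 2. H1650 was set against the other lines with limma 3.58.1 in R 4.3.3 (lmFit, eBayes with trend, cell line as a block, Benjamini-Hochberg adjustment) on genes with a mean log2 signal of at least 6.01, the median, and the fit was tested on simulated data. The lines served as replicates, so that p-values measure the spread between lines.

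The members, the gene lists and the tests were chosen with earlier results of these data known. The rule for naming genes took TOP2A, AURKB, NCAPH, CDK1 and ABCG2; up to 15 agreeing genes per direction by mean ratio; the 8 largest single readings per direction; up to 6 members of each list by size of ratio; up to 10 genes per direction in the limma comparison; and up to 8 genes whose probe sets disagreed most. Other genes given with values were chosen after their values were seen. Promoters were those of RefSeq on GRCh38.p14, found for 8037 of the 9619 genes. Alternatives were other floors and folds, quantile normalization, equal medians, 16 added to linear signals, other choices of probe set, other filters of the fit, no trend, and leaving out each line. Exchanging the H1650 labels was added after seeing the data. One item is not reported here.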

Additional observations from a re-analysis of the deposited data

Results flagged for a closer look

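Dixon's ratio over the 4 lines was computed for the log2 ratios of SP over MP of all 258 named genes, and 22 passed its critical value. Chance passes about 1 in 20 groups, a rate that holds only for genes not chosen by their H1650 values, as most of these were. H1650 stood apart in 19 of the 22. It was the lowest line with -2.01 for MICB, -1.64 for SPSB1, -1.56 for EPC1, -1.24 for CDK1, -1.17 for DUSP10, -1.14 for GATA6, -1.03 for JMJD1C, -0.92 for TTK, -0.92 for KIF11, -0.91 for FAS and -0.86 for CDT1. It was the highest with 1.31 for PMS2P5, 1.19 for VIM, 1.03 for GADD45B, 0.76 for PFKL, 0.71 for TRIOBP, 0.39 for HYOU1, 0.20 for BAX and 0.11 for SDHC. These values are of the brightest probe set. In H1650, TRIOBP had -1.55 and SDHC -0.20 in another probe set, and CDT1 had -0.07 in its second. Another line stood apart for ITGB8 (H1975, -6.96), INSIG1 (H1975, 1.5) and STC2 (H460, 0.985). With the H1650 labels exchanged these H1650 ratios would change sign.

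In the limma fit with the deposited labels, genes with an adjusted p of 0.047 for H1650 against the mean of the other 3 lines had differences of -3.53 for EPC1, -3.35 for MSL2, -3.03 for KLHL15, -2.99 for CDCA2, -2.97 for EFNB2, -2.89 for MAP3K8, -2.84 for SPSB1, -2.76 for ZNF267, -2.63 for ZNF92 and -2.59 for DUSP10. On the other side they were 2.33 for PMS2P5, 2.12 for GADD45B and 1.25 for VIM. H1650 is a single pair whose own spread is not measured. The fit had 0 such genes with no filter, without trend, with quantile normalization or with the H1650 labels exchanged (1785, 1284, 1506 and 344 at an unadjusted p under 0.05). Without A549 it called 1 gene, and 0 of the 39 genes called with all lines. The second probe sets of CDCA2 and MAP3K8 in H1650, at 0.07 and 1.04, did not have the sign of the brightest. Causes were not tested.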

How the results depend on the processing

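The counts of 34 genes higher and 115 lower in the array labelled SP were 65 higher at a floor of 7, 18 and 76 at a floor of 9, 153 and 473 at a fold of 1.5, and 2 and 21 at a fold of 3. Under the other alternatives both counts stayed within 1.5 times, but the genes did not always stay the same. Without probe sets ending in _x_at or _s_at, 35 were higher and 107 lower, of which 18 and 97 were among the 34 and 115. The 6 and 18 genes whose probe sets agree were 10 and 32 at a floor of 7, 46 and 86 at a fold of 1.5, 0 and 2 at a fold of 3, and 2 and 7 without probe sets ending in _x_at or _s_at. The lower ones were 10 at a floor of 9 and 10 at a mean log2 signal of at least 8. The 7 higher and 32 lower limma calls against the other lines were 0 and 0 with no filter, without trend and with quantile normalization (lowest adjusted p 0.072, 0.242 and 0.054, with 1785, 1284 and 1506 genes at an unadjusted p under 0.05). They were 11 and 70 with a mean signal of at least 8, 11 and 74 with the pseudocount, 18 and 97 at an adjusted p under 0.1, and 0 and 0 with the H1650 labels exchanged (lowest adjusted p 0.203, 344 genes at an unadjusted p under 0.05), an alternative chosen after seeing the data. Leaving out 1 line gave 0 to 12 higher and 1 to 107 lower. ST3GAL2 turned to 0.035 in the mean over its probe sets, whose construction includes readings of both signs. Of the other values of named genes, 446 stayed within the spread between probe sets and 22 moved, and all 117 list medians stayed within it. That spread, 0.261, is larger than most list medians, so that a small median could change its sign and still count as stayed. Other scalings moved the median of all genes by 0.02 or less. Other causes were not tested. The cell line pairs SP with MP and was a block in every limma fit.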
